A study of Mus musculus with 48 samples.

Results

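Transcripts of 10 genes of the interleukin-1 family and the NLRP3 inflammasome were followed in mouse macrophages. The genes were taken by name from a table of 51789 genes: the cytokines Il1a, Il1b and Il18, the receptor antagonist Il1rn, the decoy receptor Il1r2, the binding protein Il18bp, the sensor Nlrp3, the inflammatory caspases Casp1 and Casp4, and the pore-forming protein Gsdmd. All 10 were found in the table. No cut on measured values picked them, but they were chosen with earlier results of these data known. The 48 libraries form 16 groups of 3, since each of 8 macrophage populations received AP-3-84 at 10 µM or the DMSO vehicle for 4 h. The labels do not say what kind of compound AP-3-84 is. Ascites macrophages were F4/80+ cells, bead-sorted from peritoneal washes on day 45 of growth of ID8 cells (an ovarian tumour line of the mouse), and the strain label of these mice is B6(Cg)-Tyrc-2J/J. Thioglycollate (thio) macrophages were F4/80+ cells, bead-sorted from tumour-free C57BL/6 mice on day 4 after an injection of 1 ml thioglycollate at 3%, which recruits macrophages to the peritoneum. Bone marrow-derived macrophages came from wild-type (WT) or p53 knockout (KO) C57BL/6 mice and were cultured with M-CSF (10 ng/mL) over 6 days. M0 cells had no polarizing factor, M1 cells had LPS (100 ng/mL) with IFN-γ (50 ng/mL) during 24 h more, and M2 cells had IL-4 (10 ng/mL) with IL-13 (10 ng/mL). The ages and number of mice, the p53 allele and any pooling of animals are not stated in the sources used here. Nothing there says that replicates are separate animals or cultures, so p-values measure the spread between these libraries, which may be technical.

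IL-1α and IL-1β act through the same receptor, IL-1R1, and the product of Il1rn blocks that receptor without signalling. IL-1β and IL-18 are made as inactive precursors, and caspase-1 cleaves both after a sensor such as NLRP3 has assembled an inflammasome. Caspase-1, and caspase-11 (the product of mouse Casp4, which binds cytosolic LPS), also cut gasdermin D, whose free fragment forms pores in the plasma membrane. In macrophages, transcription of Il1b and Nlrp3 is the classical priming step that precedes assembly. The data are RNA levels only and do not show cleavage or release.

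All coordinates are on GRCm38 (GENCODE M21 annotation) and belong to protein-coding genes. Il1a lies at chr2:129299610-129309972 and Il1b at chr2:129364570-129371139, both on the minus strand, and Il1rn lies at chr2:24336853-24351494 on the plus strand. Casp1 (chr9:5298517-5307265) and Casp4 (chr9:5308828-5336783) are neighbours on the plus strand of one chromosome, which also carries Il18 at chr9:50554827-50581840. Il1r2 is at chr1:40074079-40125231, Nlrp3 at chr11:59541568-59566956 and Gsdmd at chr15:75862327-75867408, all on the plus strand, and Il18bp is at chr7:102014885-102018690 on the minus strand. Il1a, Il1b, Il1r2, Il18 and Il18bp overlap other annotated genes on the opposite strand (Il18bp lies against Numa1), and Il1r2 also overlaps Gm37347 on its own strand. The sources used here do not say whether counting used strand, so reads of such partners cannot be told apart. Of the 30-base stretches in the last 500 bases of their transcripts, Casp4 shares 60 of 2454 (2.44%) and Il1rn 20 of 2590 (0.772%) with other genes, and the other members share 0.

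The 4 promoters below are shown because they hold an AP-1 or NF-kB match and belong to members called in at least 1 polarization comparison. RefSeq windows (GRCm38.p6) exist here for 9 of the 10 members, from 250 bases before to 50 bases after an annotated start. The motif search covered these whole windows. Each sequence is the 250 bases before that start, 5′ to 3′ on the gene's strand, with motif matches in capitals. The Il1a sequence printed is chr2:129309973-129310222, minus strand, and that of Il1rn is chr2:24336610-24336859, plus strand. In both the capitals mark an AP-1 match (TGANTCA), which begins 12 bases before the start of Il1a and 141 bases before that of Il1rn. The Nlrp3 sequence printed is chr11:59541319-59541568 and that of Casp4 is chr9:5308599-5308848, both plus strand, and there the capitals mark matches to the NF-kB decamer. The Nlrp3 match begins 186 bases before the start, and the 3 matches of Casp4 begin 93, 92 and 39 bases before it, with the first 2 overlapping. RefSeq has 3 windows for Il1rn, 2 for Nlrp3 and 2 for Casp4, and the first of each is printed. The other windows of Il1rn and Nlrp3 held no match, and that of Casp4 starts 11 bases further on and holds the same number of matches.
Il1a: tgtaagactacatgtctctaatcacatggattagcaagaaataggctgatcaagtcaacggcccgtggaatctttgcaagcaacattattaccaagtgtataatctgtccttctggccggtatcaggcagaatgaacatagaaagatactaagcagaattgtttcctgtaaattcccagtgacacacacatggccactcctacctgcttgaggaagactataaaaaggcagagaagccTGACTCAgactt
Il1rn: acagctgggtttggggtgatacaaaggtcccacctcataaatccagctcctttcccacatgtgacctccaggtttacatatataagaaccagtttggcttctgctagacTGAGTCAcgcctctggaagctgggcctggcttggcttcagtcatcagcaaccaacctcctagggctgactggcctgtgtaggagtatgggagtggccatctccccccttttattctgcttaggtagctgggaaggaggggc
Nlrp3: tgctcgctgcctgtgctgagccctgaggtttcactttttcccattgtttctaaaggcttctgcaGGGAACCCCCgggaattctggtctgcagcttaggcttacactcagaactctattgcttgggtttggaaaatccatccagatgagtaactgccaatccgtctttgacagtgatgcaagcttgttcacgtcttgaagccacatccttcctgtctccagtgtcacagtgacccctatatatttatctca
Casp4: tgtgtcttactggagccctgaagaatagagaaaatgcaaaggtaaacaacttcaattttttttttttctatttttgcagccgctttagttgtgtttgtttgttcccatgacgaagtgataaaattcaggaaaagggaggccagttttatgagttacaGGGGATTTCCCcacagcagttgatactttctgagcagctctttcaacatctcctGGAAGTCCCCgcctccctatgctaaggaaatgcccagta
Il1r2 had a GAS match (TTCNNNGAA) in its window, and the windows of Il1b, Il18, Il18bp and Casp1 held none of the motifs searched on both strands, which also included an ISRE-like motif (GAAA, NN and GAAA in a row). Of all 32851 RefSeq windows, 8.46% held the NF-kB decamer, 7.81% AP-1, 8.3% GAS and 3.44% the ISRE-like motif. A match is a stretch of letters and not a measured binding site.

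The 12 peritoneal libraries held 15532373 to 19417581 counts each, and the 36 of bone marrow-derived cells held 3081707 to 4645148. The 2 sets were fitted and scaled separately, and no level is compared between them. Levels are given as CPM, counts scaled to a common library size, and because each library marks transcript 3′ ends, members are not ranked against each other. The 7 macrophage markers were detected in every library, at summed levels of 23750 to 34750 CPM in peritoneal and 5894 to 48710 CPM in bone marrow-derived libraries. The p53 target Cdkn1a was at 555 to 1120 CPM in the 18 WT and 34.1 to 292 CPM in the 18 KO libraries, which do not overlap. Trp53, the p53 gene itself, was at 4.79 to 13.2 CPM in WT and 2.7 to 9.11 CPM in KO, which overlap. Summed markers of LPS and IFN-γ were at 22020 to 75600 CPM in M1 libraries and at most 3465 CPM in the other bone marrow-derived libraries. Several libraries stood apart. Vehicle replicate 1 of WT_M2 had the highest LPS and IFN-γ marker sum of any M2 library (3465 CPM, against 183 and 234.6 CPM in replicates 3 and 2) and neutrophil markers at 4336 CPM (522.2 and 652.6 CPM in the others). Vehicle replicate 3 of KO_M2 had neutrophil markers at 3483 CPM. In KO_M0 the AP-3-84 libraries had LPS and IFN-γ marker sums of 1723, 1566 and 394.2 CPM, against 23.8 to 104.7 CPM with vehicle. For calls on members that rest on these libraries, fits or values without them are also given.

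Ascites macrophages carried more RNA of every member that could be tested than thioglycollate macrophages did, both with vehicle. The difference was largest for Il1b and Il18bp, about 16.1-fold and 7.4-fold on the fitted scale, and smallest for Casp1, the protease, at 1.32-fold. Cytokines, their antagonists, the NLRP3 sensor, both caspases and gasdermin D were all higher. With edgeR's quasi-likelihood test at a Benjamini-Hochberg adjusted p under 0.05, 9 of 9 members tested were called higher, where 20.3% of all genes tested were called higher and 33.7% were called in either direction. The members' median log2 difference was 1.76 and that of all genes 0.0463.

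Among the cytokines, Il1b was at 18.2, 12.3 and 12.4 CPM in the 3 ascites libraries and at 0.575, 0.668 and 1.36 CPM in the 3 thioglycollate libraries. Every ascites library was far above every thioglycollate library. The log2 difference was 4.01 (SE 0.378, edgeR adjusted p = 7.58e-07). Il18, the other precursor cleaved by caspase-1, was at 44.1, 42.0 and 35.8 CPM in ascites and 11.3, 13.4 and 11.3 CPM in thioglycollate macrophages, again without overlap (log2 difference 1.76, SE 0.114, edgeR adjusted p = 1.28e-09). Il1a was low in both, at 5.63, 6.11 and 4.50 CPM against 3.51, 3.28 and 1.57 CPM. Its groups did not overlap, but the difference was small (log2 0.96, SE 0.329, edgeR adjusted p = 0.0308) and was not called without ascites replicate 1, ascites replicate 2 or thioglycollate replicate 3 (highest adjusted p 0.154). 

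The antagonists of the 2 cytokine systems were higher as well. Il1rn, which blocks the IL-1 receptor, was at 209, 213 and 213 CPM in ascites and 49.5, 62.1 and 59.1 CPM in thioglycollate macrophages (log2 difference 1.89, SE 0.203, edgeR adjusted p = 4.56e-05). Il18bp, a secreted protein that captures IL-18, was at 59.8, 61.6 and 61.7 CPM against 8.49, 8.44 and 7.81 CPM (log2 difference 2.89, SE 0.128, edgeR adjusted p = 8.31e-12). Neither gene's groups overlapped, and the ascites replicates of both lay close together. The decoy receptor Il1r2 did not pass the filter on low counts, with 14 counts over the ascites libraries and 0 over the thioglycollate libraries. With the thioglycollate group set at a floor of 3 counts, Il1r2 was 4.26-fold higher in ascites. That value leaves out counting error in the 14 ascites counts and the spread between libraries.

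The inflammasome genes were also higher in ascites macrophages. Nlrp3 was at 19.8, 18.6 and 13.9 CPM against 4.41, 4.55 and 4.67 CPM (log2 difference 1.94, SE 0.148, edgeR adjusted p = 1.11e-08). Casp4 was at 16.8 ± 0.936 against 6.16 ± 0.923 CPM (SD, n = 3) and Gsdmd at 48.9 ± 2.69 against 18.5 ± 2.29 CPM, with log2 differences of 1.45 and 1.40. Casp1 moved little, from 56.4 ± 3.47 CPM in thioglycollate to 74.3 ± 1.16 CPM in ascites macrophages (SD, n = 3). That difference of 0.40 on the log2 scale still passed the edgeR test (SE 0.087, adjusted p = 0.0016). All 9 members tested had groups that did not overlap, as 26.7% of all genes did in that direction. The plot of peritoneal levels shows these values library by library.

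**Figure D1:**
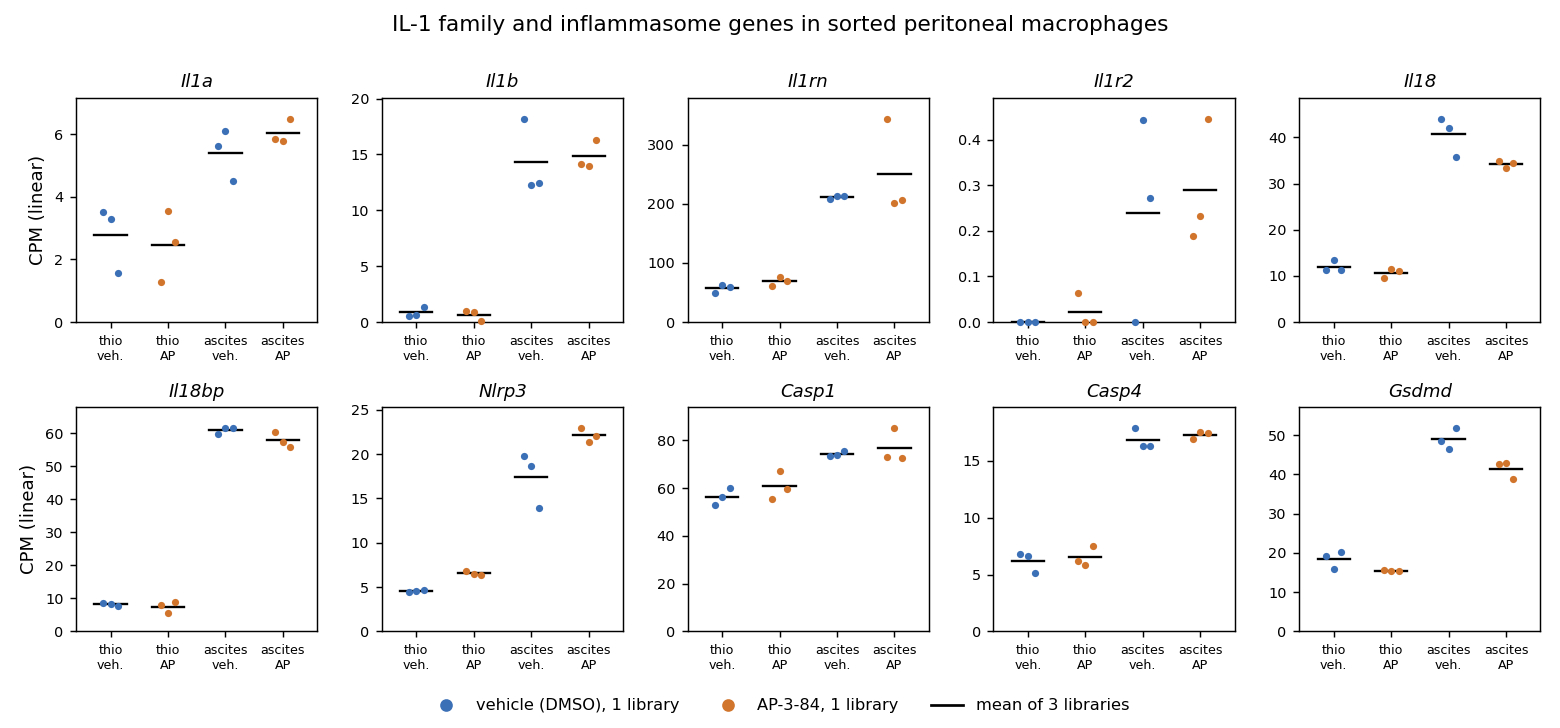
Levels of the 10 members in the 12 peritoneal libraries, in CPM on a linear axis, with 1 panel per gene and 1 point per library. Groups are thioglycollate and ascites macrophages with vehicle or AP-3-84, and bars mark the mean of 3 libraries. Il18bp lies between 59.8 and 61.7 CPM in the ascites vehicle libraries and between 7.81 and 8.49 CPM in the thioglycollate ones.

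Of 49 other genes of the pathway, 40 were tested in this comparison, and 16 were called higher and 8 lower in ascites macrophages. Of all genes, edgeR called 33.7% in either direction and 20.3% higher. The guanylate-binding proteins Gbp5 and Gbp2, which help expose bacterial products to inflammasomes, had the largest differences, with 18.0 ± 1.29 against 0.699 ± 0.301 CPM and 75.9 ± 4.28 against 4.91 ± 0.411 CPM (SD, n = 3). Il33, an IL-1 family alarmin, was called higher at 0.71 ± 0.385 against 0.0405 ± 0.0701 CPM (SD, n = 3, edgeR adjusted p = 0.00863). Tollip, which dampens IL-1 receptor signalling, the membrane channel Panx1 and the flagellin sensor Naip5 were lower by 0.79, 0.74 and 0.41 on the log2 scale. By sublist, 4 of 10 sensors, 4 of 8 assembly and priming genes and 3 of 6 death executors tested were higher, and 1, 2 and 1 were lower. The 5 epithelial or tumour cell markers summed to 123.9 to 149.6 CPM in the ascites and 1.356 to 3.256 CPM in the thioglycollate libraries, with Epcam at 0 in all 3 of the latter. The 10 neutrophil markers summed to 168.2 to 208.8 and 310.1 to 321.2 CPM, with Ngp at 0 in all 6. Their part in the result was not tested. In bulk samples, fewer cells of a type and less RNA per cell cannot be told apart. Strain, tumour and isolation protocol differed together between these mice and cannot be told apart.

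In bone marrow-derived macrophages, IL-1 transcripts were higher after LPS with IFN-γ in both genotypes. No 24 h step is stated for M0 cells. Culture time and polarizing factors thus cannot be told apart in comparisons of M1 or M2 with M0. The same M0 vehicle libraries serve the comparisons of M1, M2, genotype and AP-3-84. WT M1 cells had more Il1a, Il1b, Il18bp, Casp1 and Gsdmd than WT M0 cells. KO M1 cells had more Il1a, Il1b, Il1rn, Il1r2, Il18bp, Nlrp3, Casp1 and Casp4 than KO M0 cells. The edgeR test thus called 5 of 10 members higher and 0 lower in WT (background 15.5% of all genes in either direction and 8.01% higher), and 8 higher and 0 lower in KO (background 44.5% and 22.8%). The members' median log2 change was 0.895 in WT and 1.74 in KO (also with Il1a of KO at the fold given below), and that of all genes 0 and -0.0122. The test of the difference between the genotypes' changes called Il1rn, Nlrp3 and Casp4, each with the larger change in KO, where 20.7% of all genes were called.

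The cytokines had the largest changes. Il1b was at 8.97, 72.6 and 88.2 CPM in the WT M0 vehicle libraries and at 372, 545 and 339.9 CPM in WT M1. In KO it was at 18.1, 22.5 and 19.7 CPM in M0 and at 509, 1406 and 708 CPM in M1. In both genotypes every M1 library was above every M0 library, and M0 replicate 1 of WT was far below the other WT M0 libraries. The log2 change was 2.89 in WT (SE 0.686, edgeR adjusted p = 0.00525) and 5.44 in KO (SE 0.782, edgeR adjusted p = 5.67e-06). With only the libraries of the groups compared the WT change was not called (edgeR adjusted p = 0.086). The 2 changes differed by 2.55 (SE 0.949), which was not called by edgeR (adjusted p = 0.0581) and was called by DESeq2 (adjusted p = 0.03).

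Il1a was close to absent in M0, with 0, 0.239 and 1.53 CPM in WT and 0 counts in all 3 KO libraries. After LPS with IFN-γ it was at 49.2, 66.2 and 33.0 CPM in WT and 61.5, 122 and 101.5 CPM in KO. The WT change was 6.38 on the log2 scale (SE 0.969, edgeR adjusted p = 9.05e-05). In KO, Il1a had 1161 counts in M1 against 0 in M0 and was called higher (edgeR adjusted p = 1.25e-06). With the M0 group set at 3 counts, it was 345-fold higher. Il18 did not follow the IL-1 cytokines. Its log2 change was 0.71 in WT and 0.24 in KO (edgeR adjusted p = 0.128 and 0.557), with 17.3 to 27.4 CPM in WT M1 and 17.6 to 21.4 CPM in KO M1.

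Il1rn separated the genotypes. It was at 213, 99.2 and 89.2 CPM in WT M0 and 339, 376 and 407 CPM in WT M1. KO M0 libraries were at 23.8, 35.7 and 27.3 CPM and KO M1 libraries at 1298, 803 and 1149 CPM. The KO libraries were thus below the WT libraries before stimulation and above them after it, with no overlap in either state. Between genotypes, edgeR called the difference in M0, which was lost in some fits without 1 library. It did not call the difference in M1, as given below. The change was 1.48 in WT (SE 0.69, not called, edgeR adjusted p = 0.157) and 5.23 in KO (SE 0.817, edgeR adjusted p = 1.64e-05). The difference between the changes, 3.75 (SE 1.01, edgeR adjusted p = 0.0096), was called under all 18 alternatives. Il1r2, a receptor that binds IL-1 without signalling, was at 1.05, 0 and 0.811 CPM in KO M0 and 3.02, 3.29 and 3.79 CPM in KO M1 (edgeR adjusted p = 0.0273). That call was lost in 3 fits, each without 1 library (KO M0 replicate 2, KO M0 replicate 3 or KO M1 replicate 3), with a highest adjusted p of 0.115.

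Casp4, the LPS-binding caspase, had lower values in M1 than in M0 in WT and higher ones in KO. Its WT levels were 15.7, 22.0 and 15.1 CPM in M0 and 11.0, 12.98 and 9.82 CPM in M1, a change of -0.64 that was not called (SE 0.331, edgeR adjusted p = 0.203). In KO it was at 12.6, 8.93 and 6.22 CPM in M0 and 26.4, 34.9 and 30.8 CPM in M1, and the rise of 1.73 was called (SE 0.333, edgeR adjusted p = 9.76e-05). All 3 KO M1 libraries were above all other M0 and M1 vehicle libraries of both genotypes. The difference between the changes was 2.37 (SE 0.469, edgeR adjusted p = 0.000468) and was called under all 18 alternatives. Nlrp3 showed the same order of signs, with 21.8, 47.1 and 28.4 CPM in WT M0, 19.1, 27.3 and 18.9 CPM in WT M1, 8.91, 10.8 and 13.5 CPM in KO M0, and 16.8, 41.5 and 22.3 CPM in KO M1. The WT groups overlapped and the KO groups did not. The WT change of -0.57 was not called (edgeR adjusted p = 0.334), the KO change of 1.28 was (SE 0.396, edgeR adjusted p = 0.00954), and they differed by 1.85 (SE 0.544, edgeR adjusted p = 0.015). Without KO M1 replicate 2, at 41.5 CPM, the KO change was 0.83 and was not called (edgeR adjusted p = 0.106), and the difference between genotypes was lost without that library or without WT M0 replicate 2 (highest adjusted p 0.063).

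Of the remaining members, Il18bp and Casp1 rose in both genotypes. Il18bp changed from 4.46 ± 2.13 to 27.0 ± 3.40 CPM in WT (SD, n = 3, log2 2.60, edgeR adjusted p = 0.000695). In KO it went from 19.7, 20.0 and 17.0 CPM to 116, 17.7 and 58.2 CPM, so that the groups overlapped, and the rise of 1.75 (edgeR adjusted p = 0.00192) was lost without M1 replicate 1, with a log2 change of 1.02. Casp1 rose by 0.61 in WT (edgeR adjusted p = 0.031) and by 1.20 in KO (edgeR adjusted p = 1.48e-05), to 102 ± 9.00 and 114 ± 26.3 CPM in M1 (SD, n = 3). The WT call for Casp1 was lost without any 1 of 4 libraries (M0 replicate 2 or 3, M1 replicate 1 or 2). Gsdmd rose by 0.77 in WT (edgeR adjusted p = 0.00665) and was at 0.29 in KO (edgeR adjusted p = 0.226). The WT calls for Casp1 and Gsdmd were also lost with scaling by total counts only, which moves the median of all genes in this comparison to -0.301, and that for Gsdmd without WT M0 replicate 1. Neutrophil markers with vehicle summed to 401 to 711.1 CPM in WT M0 and 760.8 to 973.4 CPM in WT M1. Their KO sums with vehicle were 671.6 to 828.3 CPM in M0 and 1588 to 2774 CPM in M1. With vehicle, macrophage markers summed to 30190 to 38380 CPM in WT M0 and 43570 to 46540 CPM in WT M1. In KO they summed to 32250 to 38950 CPM in M0 and 16070 to 25150 CPM in M1. The part of either marker list in these changes, or in their differences between genotypes, was not tested.

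**Figure D2:**
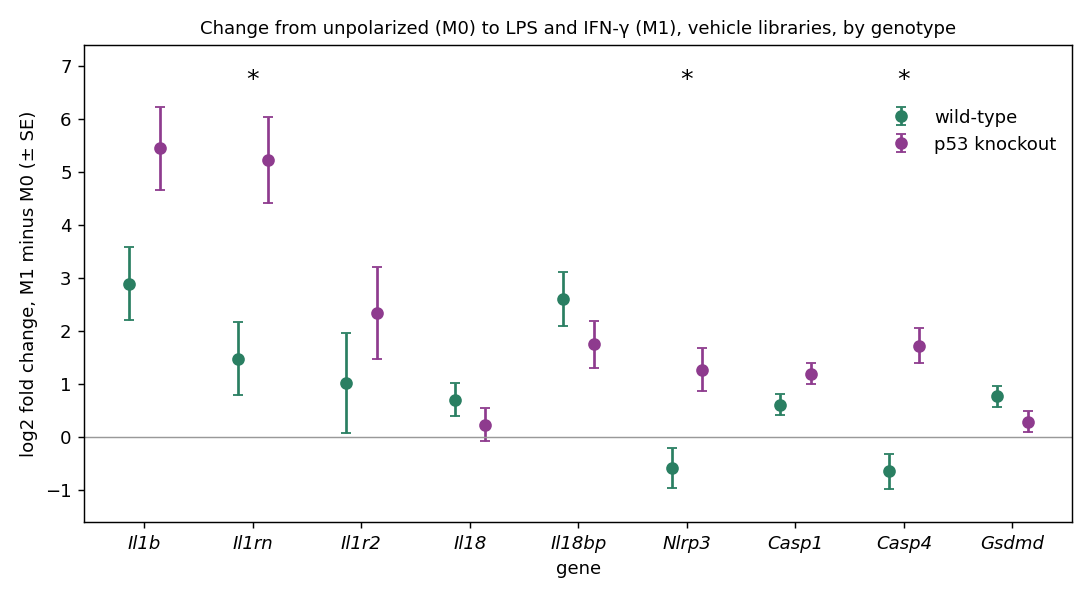
Change from M0 to M1 with vehicle for 9 members in WT and p53 KO macrophages, as log2 fold change with its standard error from edgeR (3 libraries per group). Asterisks mark Il1rn, Nlrp3 and Casp4, whose changes differed between genotypes by 3.75, 1.85 and 2.37, and Il1a is left out because KO M0 libraries had 0 counts.

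Of the 49 other pathway genes, 39 were tested in bone marrow-derived libraries. M1 cells had 5 higher and 3 lower in WT and 11 higher and 9 lower in KO. Of all genes, edgeR called 15.5% in WT and 44.5% in KO. Il36a, a cytokine of the IL-36 branch, had 0 counts in all M0 vehicle libraries and reached 1.22 ± 0.803 CPM in WT M1 and 3.04 ± 0.912 CPM in KO M1 (SD, n = 3, edgeR adjusted p = 0.0397 and 0.0024). Gbp2 and Gbp5 rose by 1.97 and 1.66 on the log2 scale in WT. Il36g, another IL-36 cytokine, and Irak3, a kinase-like protein that restrains IL-1 receptor signalling, rose by 5.15 and 2.56 in KO. Among genes that fell, Panx1, the receptor kinase Irak4 and the adaptor Tab2 fell by 0.96, 0.60 and 0.47 in WT, and Nlrp10, the adaptor Tab1 and Irak4 fell by 2.63, 1.42 and 1.22 in KO. The WT call for Panx1 was lost in all 6 fits without 1 library, that for Irak4 in 3 of them and that for Tab2 in 1. In KO the Nlrp10 call was lost in 4 such fits and the Tab1 call in 2, while Irak4 held throughout. The WT calls for Il36a, Gbp5 and Gbp2 were lost in 5, 3 and 2 of the 6, and those for Il36a, Il36g and Irak3 in KO held throughout.

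After IL-4 with IL-13, Nlrp3 was lower in WT cells, and Casp1, Casp4 and Il1rn were higher in KO cells. In WT M2 against M0, the edgeR test called Il1a and Gsdmd higher and Nlrp3 and Il18 lower, 4 of 10 members against 23.4% of all genes. In KO it called Il1rn, Casp1 and Casp4 higher and Il18 lower, 4 of 10 members, which is near the background of 38%. Il18 was the one member called in the same direction in both genotypes.

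WT M2 libraries had Nlrp3 at 12.8, 4.22 and 3.48 CPM, all below the 21.8 to 47.1 CPM of WT M0 (log2 change -2.22, SE 0.416, edgeR adjusted p = 0.000194). This call held under every alternative. In KO the same gene was at 3.71, 4.96 and 7.94 CPM in M2 and 8.91 to 13.5 CPM in M0, without overlap but not called (log2 -0.99, edgeR adjusted p = 0.0738). Il18 was at 13.4 ± 5.65 CPM in WT M0 and 6.99 ± 2.96 CPM in WT M2, and at 16.9 ± 1.38 CPM in KO M0 and 9.49 ± 3.53 CPM in KO M2 (SD, n = 3, edgeR adjusted p = 0.0447 and 0.0429). Both Il18 calls were near the threshold, and they were lost in WT without M0 replicate 2 or 3 or M2 replicate 1 or 2, and in KO without any 1 library but M2 replicate 3, with highest adjusted p of 0.262 and 0.186 over all alternatives.

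Il1a varied widely among the WT M2 libraries, at 68.2, 7.54 and 1.90 CPM against 0, 0.239 and 1.53 CPM in M0. Replicate 1, the highest, is the library with LPS and IFN-γ markers at 3465 CPM. The log2 change was 5.46 (edgeR adjusted p = 0.000299), and without that library it was 3.00 and still called (edgeR adjusted p = 0.00484). In KO, Il1a had 27 counts in M2 and 0 in M0 and was not called (edgeR adjusted p = 0.0608). It was 7.91-fold higher with the M0 group set at 3 counts, without allowance for error in the 27 counts. Gsdmd rose in WT from 22.0, 28.7 and 35.3 CPM to 43.1, 48.9 and 56.4 CPM (log2 0.79, edgeR adjusted p = 0.00348). Its groups did not overlap.

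The caspases rose in KO M2. Casp1 was at 63.2, 46.8 and 38.4 CPM in KO M0 and 90.7, 86.9 and 125.5 CPM in KO M2 (log2 1.03, SE 0.201, edgeR adjusted p = 0.000146). Casp4 was at 15.7, 25.0 and 46.4 CPM in KO M2, all above KO M0 (log2 1.65, SE 0.333, edgeR adjusted p = 0.00023). Both calls held under every alternative, including the fits without KO M2 replicate 3, the library with high neutrophil markers. Summed macrophage markers were at 32250 to 38950 CPM in KO M0 and 5894 to 18410 CPM in KO M2 vehicle libraries, and their part in these changes was not tested. Il1rn was at 77.7, 209.7 and 368 CPM in KO M2, above the 23.8 to 35.7 CPM of M0 (log2 2.92, edgeR adjusted p = 0.00354). The highest of these Il1rn values is from replicate 3, and the other M2 libraries were also above M0. The WT changes of Casp1 and Casp4 were 0.19 each and not called (edgeR adjusted p = 0.523 and 0.712). The KO change exceeded the WT change by 0.84 for Casp1 (edgeR adjusted p = 0.0268) and 1.45 for Casp4 (edgeR adjusted p = 0.0189), and it was lower by 1.89 for Il18bp (edgeR adjusted p = 0.0467). These are 3 of 10 members, near the share of all genes called, 27.1%. Without KO M2 replicate 3 and WT M2 replicate 1, none of the 3 differences was called. Of 12 fits without 1 library, Casp4 was lost in 4 (WT M0 replicate 2, WT M2 replicate 3, KO M0 replicate 3, KO M2 replicate 3) and Casp1 in 5 (WT M0 replicate 1, WT M2 replicate 3, KO M0 replicates 2 and 3, KO M2 replicate 3). Il18bp was lost in 9, all but WT M0 replicate 3, WT M2 replicate 2 and KO M2 replicate 1.

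Other pathway genes called in M2 numbered 7 higher and 7 lower in WT and 5 higher and 7 lower in KO, of 39 tested. Of all genes, edgeR called 23.4% in WT and 38% in KO. In WT the IL-33 receptor Il1rl1, the signalling IL-1 receptor Il1r1 and Gbp2 rose by 3.85, 3.00 and 2.77 on the log2 scale. The Il1r1 call was lost without WT M0 replicate 2 or 3 or WT M2 replicate 1 or 2 (log2 2.65 and edgeR adjusted p = 0.0892 without WT M2 replicate 1, which stood apart), and those for Il1rl1 and Gbp2 held throughout. In KO the IL-36 receptor Il1rl2, Gbp2 and Il1rl1 rose by 3.40, 3.24 and 2.24. Irak3 fell by 2.59 and the pyrin gene Mefv by 1.12 in WT, and Nlrc4, a sensor that works with NAIP proteins, fell by 1.00 in WT and 1.07 in KO. Ninj1, which ruptures the membrane of dying cells, and Tab2 fell by 0.99 and 0.95 in KO. Among these, the WT call for Mefv was lost in 4 of 6 fits without 1 library and the KO call for Il1rl1 in 3.

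Without polarizing factors, KO macrophages had less Nlrp3, Il1rn and Casp4 and more Il18bp than WT macrophages, all with vehicle. Nlrp3 was at 8.91 to 13.5 CPM in KO and 21.8 to 47.1 CPM in WT, with no overlap (log2 difference -1.55, SE 0.394, edgeR adjusted p = 0.0032). Il18bp was at 19.7, 20.0 and 17.0 CPM in KO and 2.02, 5.50 and 5.88 CPM in WT (log2 difference 2.09, SE 0.513, edgeR adjusted p = 0.00256). Both calls held under every alternative. Il1rn (log2 difference -2.21, edgeR adjusted p = 0.023) and Casp4 (-0.92, edgeR adjusted p = 0.034) were each lost in 3 fits without 1 library. For Il1rn these were without WT M0 replicate 1, KO M0 replicate 1 or KO M0 replicate 3 (highest adjusted p 0.118). For Casp4 they were without WT M0 replicate 2, KO M0 replicate 2 or KO M0 replicate 3 (highest adjusted p 0.169). These are 4 of 10 members, near the share of all genes called, 33.2%.

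In M1 the edgeR test called 1 member, Casp4, higher in KO, where 11.6% of all genes were called and 5.93% were higher. It was at 26.4, 34.9 and 30.8 CPM in KO and 11.0, 12.98 and 9.82 CPM in WT. The KO libraries were all above the WT libraries (log2 difference 1.44, SE 0.326, edgeR adjusted p = 0.00415), and the call held under every alternative. Between the same libraries, KO against WT, neutrophil markers summed to 1588 to 2774 against 760.8 to 973.4 CPM and macrophage markers to 16070 to 25150 against 43570 to 46540 CPM, without overlap. Their part in the difference was not tested. Il1b and Il1rn had log2 differences of 1.06 and 1.53 that were not called (edgeR adjusted p = 0.292 and 0.142). In M2 it called Il1a lower in KO, 1 member where 3.56% of all genes were called and 2.34% were lower, at 1.59, 2.48 and 2.48 CPM against 68.2, 7.54 and 1.90 CPM. Those groups overlapped. The log2 difference of -3.55 (SE 0.807, edgeR adjusted p = 0.0148) became -1.12 without WT M2 replicate 1 (edgeR adjusted p = 0.32) and was also lost without KO M2 replicate 2 or replicate 3.

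Among other pathway genes, KO M0 cells had 5 higher and 4 lower than WT M0 cells, of 39 tested. Of all genes, edgeR called 33.2% between genotypes in M0, 11.6% in M1 and 3.56% in M2. Tab1 and Irak4 were higher by 1.21 and 0.62 on the log2 scale. Irak3 was at 24.3 ± 0.963 CPM in KO and 169.6 ± 42.4 CPM in WT (SD, n = 3, log2 difference -2.80, edgeR adjusted p = 3.23e-07), and Il1rl2 and Mefv were lower by 1.18 and 1.02. Of these, Irak3 held under every alternative, and Tab1, Mefv, Il1rl2 and Irak4 were lost in 5, 5, 4 and 2 of 6 fits without 1 library. In M1, Il36g and the DNA sensor Aim2 were higher in KO by 2.76 and 0.64, and the adaptor Myd88 was lower by 0.91. Myd88 held under every alternative, and Il36g and Aim2 were each lost in 5 of 6 fits without 1 library. In M2, Il36g was the one gene called, lower by 3.52 in KO, with 0.983 ± 1.09 against 11.5 ± 15.4 CPM (SD, n = 3) and overlapping groups. Without WT M2 replicate 1 the Il36g difference was -1.40 and not called (edgeR adjusted p = 0.467), and the call was also lost without KO M2 replicate 1, 2 or 3.

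**Figure D3:**
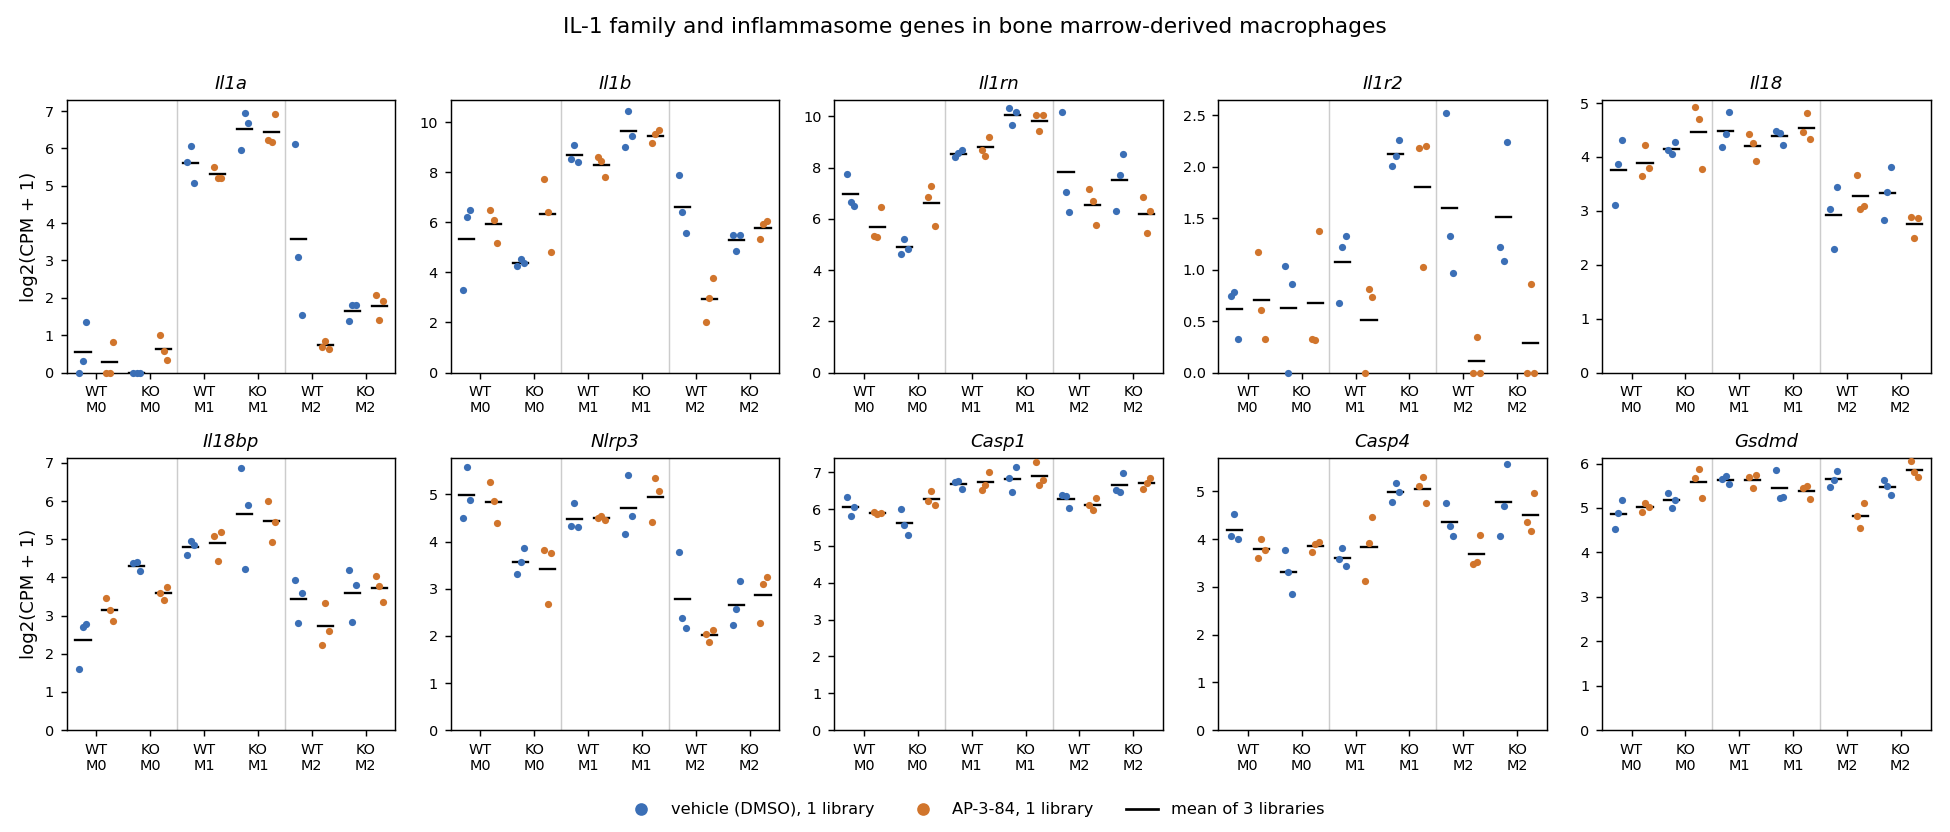
Levels of the 10 members in the 36 bone marrow-derived libraries, as log2(CPM + 1), with 1 panel per gene and 1 point per library. WT and KO macrophages in M0, M1 and M2 are shown with vehicle in blue and AP-3-84 in orange, and bars mark the mean of 3 libraries. Il1a is at 0 counts in all 3 KO M0 vehicle libraries and at 61.5 to 122 CPM in KO M1.

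With AP-3-84, members of the group were called in 2 of 8 populations. In WT_M2 macrophages Il1a, Il1b and Gsdmd were lower with the compound, and in KO_M0 macrophages Il1b and Casp1 were higher. The edgeR test called these 5 of the 80 pairs of member and population and no member in the other 6 populations. Of all genes, 1.21% were called in WT_M2 and 20.7% in KO_M0, where 2 of 10 members is near that share. Each of the 5 calls was lost when some single library was left out. With only the libraries of the groups compared, Il1b and Gsdmd in WT_M2 and both calls in KO_M0 were lost (edgeR adjusted p from 0.0918 to 0.219).

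In WT_M2 the edgeR test called 3 members lower and 0 higher, where 1.21% of all genes were called in either direction and 0.976% lower. The IL-1 cytokines had the largest differences. Il1b was at 240.1, 84.1 and 46.5 CPM with vehicle and at 3.09, 6.97 and 12.8 CPM with AP-3-84. Il1a was at 68.2, 7.54 and 1.90 CPM with vehicle and at 0.618, 0.804 and 0.556 CPM with AP-3-84. For both genes every treated library was below every vehicle library, and vehicle replicate 1 was by far the highest. The log2 change was -4.00 for Il1b (SE 0.79, edgeR adjusted p = 0.00849) and -5.24 for Il1a (SE 1.01, edgeR adjusted p = 0.00755). Without vehicle replicate 1, whose LPS and IFN-γ and neutrophil markers were high, the changes were -3.09 and -2.80 and neither was called (edgeR adjusted p = 0.0665 and 0.0846). Both calls were also lost without AP-3-84 replicate 1 or 2. DESeq2 called both (adjusted p = 1.48e-06 and 1.6e-05).

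Gsdmd, which that vehicle library did not lead, was at 43.1, 48.9 and 56.4 CPM with vehicle and 27.2, 22.2 and 33.6 CPM with AP-3-84 in WT_M2. The groups did not overlap, and the log2 change was -0.84 (SE 0.199, edgeR adjusted p = 0.0267). Without vehicle replicate 1 it was -0.93 and called (edgeR adjusted p = 0.0333). It was lost without any 1 of 4 other libraries, vehicle replicates 2 and 3 and AP-3-84 replicates 1 and 2 (edgeR adjusted p up to 0.217), and with scaling by total counts only (edgeR adjusted p = 0.0645). Il1rn was at 1149, 132 and 75.4 CPM with vehicle and 141, 102 and 53.4 CPM with AP-3-84, with overlap (log2 -2.20, not called, edgeR adjusted p = 0.158). Over the alternatives its log2 change ran from -2.69 to -0.08. It was called by DESeq2, without the filter on low counts and without vehicle replicate 3. Il1r2 had 25 counts with vehicle and 1 with AP-3-84 and was not called (edgeR adjusted p = 0.0653). The groups of 5 members did not overlap, all lower with AP-3-84, as for 8.78% of all genes in that direction.

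Gbp5 and Gbp2 were the other pathway genes called in WT_M2, 2 of 39 tested, both lower with AP-3-84. Of all genes, edgeR called 1.21% there. Gbp5 was at 7.94 ± 1.25 CPM with vehicle and 0.735 ± 0.851 CPM with AP-3-84 (SD, n = 3, log2 -3.34, edgeR adjusted p = 0.00171). Gbp2 was at 101 ± 46.0 against 22.5 ± 21.02 CPM (SD, n = 3, log2 -2.16, edgeR adjusted p = 0.0281). The Gbp2 call was lost in 3 fits that each left out 1 library, replicate 2 of vehicle and replicates 1 and 2 of the treated group (edgeR adjusted p up to 0.203). With only the libraries of the groups compared, neither was called (edgeR adjusted p = 0.389 for Gbp2 and 0.0576 for Gbp5). The summed LPS and IFN-γ markers, which include Gbp5, were at 34.46 to 97.84 CPM in the AP-3-84 libraries of WT_M2 and at 183 to 3465 CPM in the vehicle libraries. Their part in the result was not tested.

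In KO_M2 the response differed from that of WT_M2 for 2 members. Il1b was at 44.3, 27.7 and 44.6 CPM with vehicle and 38.9, 59.5 and 65.3 CPM with AP-3-84, overlapping groups with no call. The difference between the KO and WT changes was 4.50 (SE 1.03, edgeR adjusted p = 0.0237). For Gsdmd, at 48.8, 44.2 and 38.2 CPM with vehicle and 65.3, 55.2 and 50.8 CPM with AP-3-84, it was 1.22 (SE 0.276, edgeR adjusted p = 0.0188). Of all genes, 1.77% were called in this difference. Without WT M2 vehicle replicate 1 and KO M2 vehicle replicate 3 the differences were 3.71 for Il1b (edgeR adjusted p = 0.147) and 1.24 for Gsdmd (edgeR adjusted p = 0.0623). Leaving out single libraries lost the Gsdmd difference in 4 of 12 fits (WT_M2 AP-3-84 replicates 1 and 2, KO_M2 vehicle replicates 2 and 3). The Il1b difference was lost in 7 of 12, with these 4 libraries, WT_M2 vehicle replicate 1 and KO_M2 AP-3-84 replicates 2 and 3.

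In KO_M0 the edgeR test called 2 members higher with AP-3-84, where 20.7% of all genes were called in either direction and 12.1% higher. Il1b was at 18.1, 22.5 and 19.7 CPM with vehicle and 214, 83.6 and 27.3 CPM with AP-3-84. The treated libraries were all above the vehicle libraries, and replicate 3 was only just so (log2 change 2.43, SE 0.71, edgeR adjusted p = 0.0167). Casp1 was at 63.2, 46.8 and 38.4 CPM with vehicle and 74.0, 89.3 and 68.3 CPM with AP-3-84, also without overlap (log2 change 0.64, SE 0.201, edgeR adjusted p = 0.0215). Il1rn, at 115, 153 and 52.4 CPM against 23.8, 35.7 and 27.3 CPM, had a change of 1.89 that edgeR did not call (adjusted p = 0.0691) and DESeq2 did (adjusted p = 0.0226).

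The AP-3-84 replicates 1 and 2 of KO_M0 are those with LPS and IFN-γ markers at 1723 and 1566 CPM. Without both, the log2 change was 0.45 for Il1b (edgeR adjusted p = 0.94), 0.48 for Casp1 (edgeR adjusted p = 0.696) and 0.87 for Il1rn (edgeR adjusted p = 0.89), with the remaining treated library assumed to vary like the other groups. Leaving out single libraries, the Il1b call was lost without vehicle replicate 1, vehicle replicate 3 or AP-3-84 replicate 1 (log2 change 1.47 without the last), and the Casp1 call without vehicle replicate 2, vehicle replicate 3 or AP-3-84 replicate 2. The response of KO_M0 exceeded that of WT_M0 by 3.19 for Il1rn (SE 1.02, edgeR adjusted p = 0.0317) and by 0.83 for Casp1 (SE 0.283, edgeR adjusted p = 0.0405), where 17% of all genes were called, and neither was called without those 2 libraries (edgeR adjusted p = 0.498 and 0.448). Leaving out single libraries lost the Il1rn difference in 7 of 12 fits (WT_M0 vehicle replicate 1, WT_M0 AP-3-84 replicates 1 and 2, KO_M0 vehicle replicates 1 and 3, KO_M0 AP-3-84 replicates 1 and 2). It lost the Casp1 difference in 9 of 12, all but WT_M0 vehicle replicate 2, KO_M0 vehicle replicate 1 and KO_M0 AP-3-84 replicate 3. In WT_M0, Il1rn was at 213, 99.2 and 89.2 CPM with vehicle and 38.8, 37.7 and 86.4 CPM with AP-3-84, a change of -1.30 that was not called (edgeR adjusted p = 0.579).

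Other pathway genes called in KO_M0 numbered 3 higher and 2 lower of 39 tested, where edgeR called 20.7% of all genes. The higher ones were Myd88, Irak3 and the adaptor gene Pycard, whose product ASC links NLRP3 to caspase-1. Il1r1 and the ATP-gated channel gene P2rx7 were lower. Pycard was at 186 ± 75.3 CPM with AP-3-84 and 85.0 ± 4.15 CPM with vehicle (SD, n = 3), and Irak3 at 115 ± 56.9 against 24.3 ± 0.963 CPM. Myd88 was higher by 0.97 and P2rx7 lower by 0.79 on the log2 scale, and Il1r1 was at 0.0882 ± 0.153 against 1.53 ± 0.875 CPM (SD, n = 3). None of these 5 was called without AP-3-84 replicates 1 and 2.

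No member was called with AP-3-84 in ascites, thioglycollate, WT_M0, WT_M1, KO_M1 or KO_M2 macrophages, by edgeR or by DESeq2. The share of all genes that edgeR called there was 1.79%, 4.32%, 0.144%, 0.017%, 0% and 0.0509%. Members at an unadjusted edgeR p under 0.05 numbered 3 and 2 of 9 tested in the peritoneal populations and 0, 0, 0 and 3 of 10 in the others. Of all genes, 1804 and 2665 of 16955 and 1107, 857, 206 and 1454 of 11779 met that unadjusted rule. Among all genes, DESeq2 called 0 in KO_M1 as well. Il1b was at 388, 346 and 224 CPM with AP-3-84 in WT_M1, against 339.9 to 545 CPM with vehicle, and at 569, 744 and 832 CPM in KO_M1, against 509 to 1406 CPM. All members' groups overlapped in WT_M1 and KO_M1.

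In the peritoneal cells Nlrp3 was the member nearest to a call. With AP-3-84 it was at 6.84, 6.42 and 6.36 CPM in thioglycollate macrophages, above the 4.41, 4.55 and 4.67 CPM with vehicle. The groups did not overlap, and the log2 change was 0.53 (SE 0.155, edgeR adjusted p = 0.0695). In ascites macrophages it was at 23.0, 21.4 and 22.1 CPM against 19.8, 18.6 and 13.9 CPM, also without overlap (log2 0.34, edgeR adjusted p = 0.336). Gsdmd was at 42.7, 42.9 and 38.9 CPM with AP-3-84 and 48.4, 46.6 and 51.9 CPM with vehicle in ascites, and at 15.6, 15.3 and 15.5 CPM against 19.3, 15.9 and 20.3 CPM in thioglycollate macrophages. These groups did not overlap in either population, and the log2 changes of -0.24 and -0.26 were not called (edgeR adjusted p = 0.365 and 0.214). Il18 in ascites macrophages was at 34.8, 33.3 and 34.4 CPM against 35.8 to 44.1 CPM with vehicle, not called (edgeR adjusted p = 0.4). In ascites, the groups of 1 member were without overlap and higher with AP-3-84 and those of 2 were lower, against 9.86% and 6.41% of all genes. In thioglycollate macrophages these numbers were 1 and 1, against 12.7% and 10.6% of all genes.

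No member's response to AP-3-84 was called as different between ascites and thioglycollate, KO_M1 and WT_M1, WT_M1 and WT_M0, or WT_M2 and WT_M0, where 0.118%, 0.00849%, 0.0255% and 0.136% of all genes were called by edgeR. The members at an unadjusted edgeR p under 0.05 numbered 0 of 9, 0 of 10, 0 of 10 and 4 of 10 tested. Of all genes, 1295 of 16955 and 831, 799 and 1361 of 11779 met that unadjusted rule. DESeq2 called Il1b in the last of these comparisons (log2 difference -4.20, adjusted p = 0.00398) and no member in the other 3. Among other pathway genes Panx1 was higher with AP-3-84 in thioglycollate macrophages, at 23.7 ± 1.05 against 13.3 ± 1.57 CPM (SD, n = 3, edgeR adjusted p = 0.000535), and in WT_M0, at 94.4 ± 16.8 against 33.3 ± 5.30 CPM (SD, n = 3, edgeR adjusted p = 0.0333). The second of these calls was lost under 6 alternatives. None of the 49 was called in ascites, WT_M1, KO_M1 or KO_M2.

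**Figure D4:**
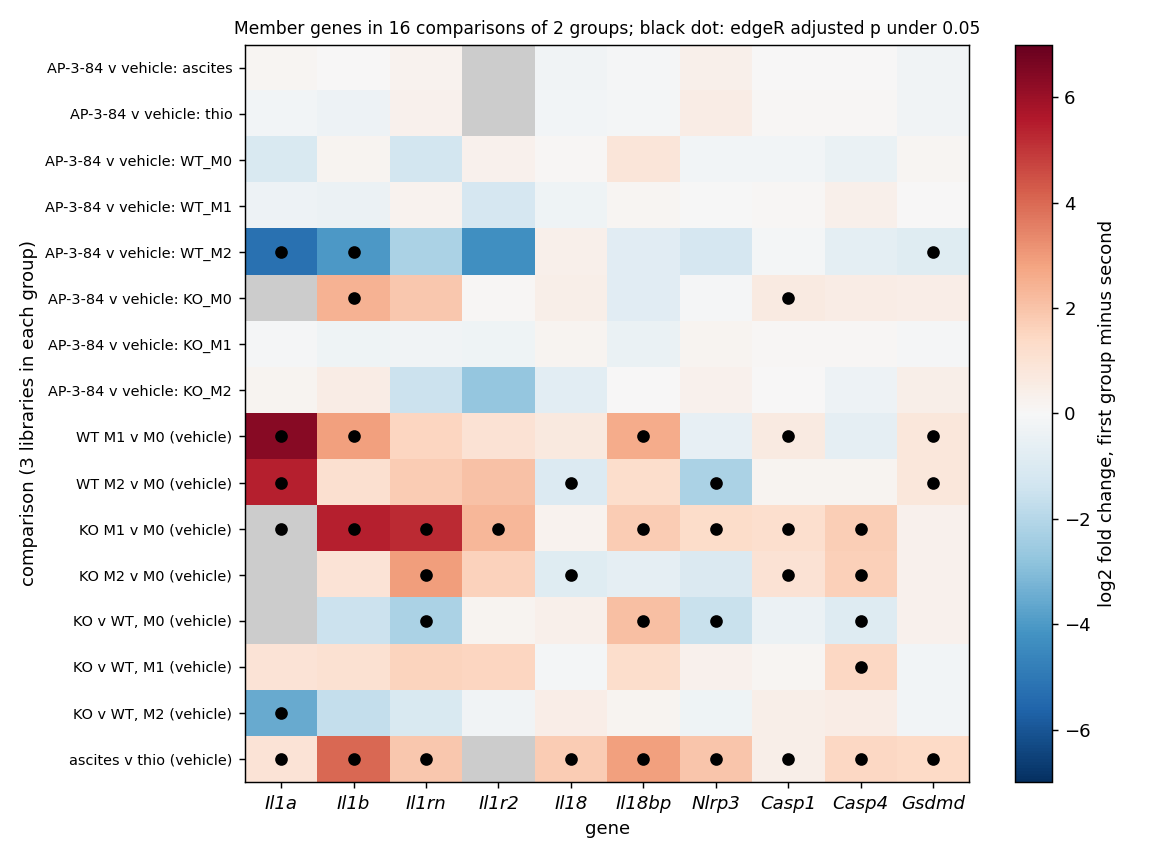
Log2 fold change (colour, red for higher in the first group) of the 10 members along the horizontal axis in 16 comparisons of a pair of groups along the vertical axis, with a black dot where edgeR called the difference. Grey cells had no test or 0 counts in a group, the ascites comparison has 9 dots, and the 8 comparisons of AP-3-84 with vehicle hold 5 in all.

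Across the 12 bone marrow-derived group means, the highest Pearson's r between members on log2 levels was 0.941 for Il1a with Il1rn, then 0.894 for Il1a with Il1b, 0.846 for Il1b with Il1rn and 0.83 for Il1a with Casp1, while Nlrp3 with Gsdmd was at -0.104 and Il18 with Casp4 at -0.124. The points share the polarization steps and the scaling of one fit, and these values are descriptions. Among 11769 other genes tested, those closest to Il1b were Adora2a (an adenosine receptor, r = 0.963), Stim2 (0.954) and Wnt6 (0.936). For Nlrp3 they were Gdpd1 (0.948), Fyb (0.946) and the LPS co-receptor Cd14 (0.944). For Casp4 they were Lias (0.941), Srpk1 (0.922) and the kinase Pim1 (0.901), and for Il18bp the class I histocompatibility genes H2-Q7 (0.946) and H2-Q5 (0.944) and Fbxo7 (0.944).

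The order of the vehicle group means in bone marrow-derived cells differed between members. Il1b ran from 20.1 ± 2.22 CPM in KO_M0 through 38.9 ± 9.68 in KO_M2, 56.6 ± 42.0 in WT_M0, 124 ± 103 in WT_M2 and 419 ± 110 in WT_M1 to 874 ± 471 CPM in KO_M1 (SD, n = 3). Neighbours in this order overlapped, except KO_M0 with KO_M2 and WT_M2 with WT_M1. Nlrp3 was lowest in M2, at 5.54 ± 2.17 CPM in KO and 6.84 ± 5.18 CPM in WT, and highest in WT_M0 at 32.4 ± 13.1 CPM. KO_M0 lay at 11.1 ± 2.32, WT_M1 at 21.7 ± 4.80 and KO_M1 at 26.9 ± 12.99 CPM, and the 2 M1 groups overlapped. Casp4 was lowest in KO_M0 (9.24 ± 3.19 CPM) and WT_M1 (11.3 ± 1.60 CPM) and highest in KO_M2 (29.0 ± 15.8 CPM) and KO_M1 (30.7 ± 4.28 CPM), and each of these pairs overlapped.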

How the data were processed

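RNA was measured by 3′ mRNA sequencing (QuantSeq FWD, 100 ng RNA per library, single reads of 75 bases, per the labels' protocols). The deposited table holds raw whole-number counts per gene and library, and the submitters' processing notes name RSEM, Bowtie2 and DESeq2 without versions or roles. If RSEM made the counts, they may be rounded estimates. The sources used here state neither the authors' genome build and annotation nor molecular identifiers. Folds set against a floor of 3 counts allow for neither counting error nor the spread between libraries. A gene ID table gave symbols for 51596 of 51789 IDs. Titles and descriptions set the groups. The genotype field calls all bone marrow-derived libraries wild-type, whereas titles, descriptions and the series' design separate WT and KO. Replicate libraries differed beyond counting error (chi-square per gene, on average, of 5.3 to 25.2 over 12 peritoneal pairs and 2.51 to 38.7 over 36 bone marrow-derived pairs).

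Counts were tested with edgeR 4.0.16 (quasi-likelihood, robust, R 4.3.3), without a block, with a mean for each group, TMM scaling and filterByExpr by group. The 12 peritoneal and 36 bone marrow-derived libraries were fitted separately, with 16955 and 11779 genes tested. Tests are two-sided, and a call is a Benjamini-Hochberg adjusted p under 0.05 over all genes of a comparison. There were 24 comparisons: 8 of vehicle groups, 8 of the compound with vehicle, 6 differences between its effects and 2 differences between polarization changes. CPM uses TMM library sizes within each fit, SE is the log2 change divided by the square root of F, and the method was checked on simulated counts. Alternatives were median-ratio size factors, total counts only, no filter, DESeq2 1.42.0, a block for the replicate number, only the groups compared, and each library left out in turn, plus 2 chosen after seeing the data (without the M2 vehicle libraries that stand apart, and without KO_M0 AP-3-84 replicates 1 and 2). The members and gene lists were chosen with earlier results of these data known. All members are named, and of the other pathway genes the largest 3 called in each direction per comparison. A gene that this rule would name is not reported here. For Il1b, Nlrp3, Casp4 and Il18bp the 3 genes with the highest r over the 12 bone marrow-derived groups are named. Lists used are 49 other pathway genes, markers of 7 cell types and 2 polarization lists. Summed markers over the 48 libraries were at most 22.69 CPM for B cells, 1.137 CPM for T or NK cells, 34.74 CPM for dendritic cells and 4.291 CPM for eosinophils or mast cells. Markers of IL-4 and IL-13 summed to 6047 to 15540 CPM in M2 libraries, against at most 478.2 CPM in M0 and 260.8 CPM in M1.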

Additional observations from a re-analysis of the deposited data

Results flagged for a closer look

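Each of these results is a difference between the changes of a pair of populations under the same contrast, called by edgeR's interaction test at an adjusted p under 0.05. The response to AP-3-84 in KO_M0 exceeded that in WT_M0 by 3.189 on the log2 scale for Il1rn and 0.8271 for Casp1. The response in KO_M2 exceeded that in WT_M2 by 4.498 for Il1b and 1.219 for Gsdmd. The change from M0 to M1 was larger in KO than in WT by 3.747 for Il1rn, 1.851 for Nlrp3 and 2.367 for Casp4. The change from M0 to M2 in KO less that in WT was -1.893 for Il18bp, 0.8373 for Casp1 and 1.454 for Casp4. Comparisons of AP-3-84 and of polarization share the vehicle libraries of M0 and M2, so these values are not independent of each other.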

How the results depend on the processing

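Of 51 calls on members, 26 held under every alternative run and 25 were lost under at least 1, of which 24 were lost by leaving out a single library. None changed direction. Of 185 uncalled pairs of member and comparison, 36 were called under some alternative. Of 49 named calls on other pathway genes, 22 held throughout, 27 were lost at least once (23 of them by leaving out a single library), and 0 reversed. Members called with AP-3-84 numbered 5, and 2 to 8 leaving out 1 library, 3 with scaling by total counts only, 11 without the filter on low counts, 1 with only the groups compared and 3 without KO_M0 AP-3-84 replicates 1 and 2. With the replicate number as a block they numbered 3, without Il1b in WT_M2 (edgeR adjusted p = 0.142) and in KO_M0 (0.129), and the Il1b difference between KO_M2 and WT_M2 was lost. Whether the numbers pair the samples is not known. Deviations of same-numbered libraries correlated from -0.33 to 0.38 over 24 pairs, with 4 over 0.1. With 3 libraries per group these values cannot settle it. Polarization calls numbered 21 (18 to 23 leaving out 1 library), ascites calls 9 (8 to 9) and KO calls 6 (4 to 7, and 14 without the filter). Differences between AP-3-84 responses numbered 4 (2 to 6 leaving out 1 library, 12 without the filter, 2 with only the groups compared, 2 without the M2 vehicle libraries that stand apart and 2 without KO_M0 AP-3-84 replicates 1 and 2). Differences between polarization changes numbered 6 (3 to 8, and 10 without the filter). The causes were not tested. Scaling by total counts moved the median log2 change of all genes by over 0.1. It became 0.113 for AP-3-84 in WT_M2, -0.301 and -0.198 for WT M1 and M2 against M0, 0.272 and 0.19 for KO against WT in M1 and M2, -0.151 for KO_M2 less WT_M2, 0.106 for WT_M2 less WT_M0, and 0.232 and 0.128 for the KO less WT changes to M1 and M2. The share of calls that were higher went from 51.7% to 16.9% in WT M1, 54.2% to 30.7% in WT M2, 50.9% to 89% and 34.1% to 76.6% for KO in M1 and M2, 61.1% to 36.1% for KO_M2 less WT_M2, and 54.1% to 76.4% and 51.4% to 65.2% for the KO less WT changes to M1 and M2. With 3 libraries per group and 3081707 to 4645148 counts per bone marrow-derived library, Il1r2 and Il1a in M0 rest on few counts.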
